A study of Mus musculus with 2 samples.

Results

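The cells described here are T cells from RM-1 prostate tumours whose summed count of Mki67 and Top2a reached 3 unique molecular identifiers (UMIs, each standing for 1 captured mRNA molecule). They numbered 62 of the 33222 cell barcodes in the data, with 17 of 15909 in the RP-6306 library and 45 of 17313 in the vehicle library. They were chosen on raw UMIs. A barcode needed 500 or more UMIs, 300 or more detected genes and no more than 15% of UMIs from mitochondrial genes. It also needed at least 1 UMI of the T cell genes Cd3d, Cd3e and Cd3g together, no UMI of the B cell genes Cd79a, Ms4a1 and Ebf1, no UMI of the RM-1 keratins Krt8 and Krt18, at most 1 UMI of the myeloid gene Lyz2, and no UMI of the regulatory T cell gene Foxp3. CD8 and CD4 cells were kept together. Because Mki67 and Top2a chose these cells, every difference between them and other T cells of the same libraries is given as a description, with no test.

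RM-1, a mouse prostate cancer line, was grown under the skin of C57BL/6 mice labelled wild type, and the tumours were collected after 10 days of treatment. One group received RP-6306, which inhibits PKMYT1, and the other received vehicle. The tumours were dissociated, and sorted CD45+ (leukocyte) cells were mixed back with tumour cells before droplet capture with the SeekOne DD 3' kit, so shares of all barcodes are set by that mix. The design text names 2 mice bearing grafts and does not tie each to a group. With 1 library in each group, the drug and the animal cannot be told apart, no test between the groups was possible, and every 95% interval below covers counting error only.

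A T cell that recognises its antigen leaves quiescence, grows, copies its DNA in S phase and divides in mitosis. Mki67 encodes Ki-67, which coats mitotic chromosomes and is made in dividing cells, and Top2a encodes the topoisomerase that untangles DNA before chromosomes separate. PKMYT1 and WEE1 place inhibitory phosphates on CDK1 and so hold a cell back from mitosis, while CDC25 phosphatases remove them. In tumours, dividing T cells are known to include activated CD8 cells on the way to effector or exhausted states and activated CD4 cells, among them regulatory T cells.

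Most barcodes with both Cd3 and cycle transcripts were removed by the gates, and those removed are not shown to be T cells. Of the cells with a Cd3 UMI, 266 in the RP-6306 library and 221 in the vehicle library had at least 3 Mki67 and Top2a UMIs. In the RP-6306 library the B cell genes left 166 of them, the keratins 24, Lyz2 17 and Foxp3 17, and in the vehicle library these steps left 129, 49, 49 and 45. The keratin gate, aimed at RM-1 cells, thus removed a larger share of the RP-6306 candidates than of the vehicle candidates. No barcode of the 62 cells occurred in the other library, although 374 barcodes were shared between the libraries, 15 of them among all gated T cells.

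Before the Mki67 and Top2a step, the gate held 4319 T cells in the RP-6306 library and 3221 in the vehicle library. In the RP-6306 library 3793 of these had 0 Mki67 and Top2a UMIs, 460 had 1, 49 had 2, 8 had 3 and 6 had at least 6. In the vehicle library 2572 had 0, 498 had 1, 106 had 2, 14 had 3 and 16 had at least 6. The threshold therefore fell on the tail of a falling distribution, with 49 (RP-6306) and 106 (vehicle) cells just outside it and 8 (RP-6306) and 14 (vehicle) cells just inside it. The 62 cells were deep for T cells, with a median of 4764 UMIs (range 1569 to 27386) in the RP-6306 library and 4581 UMIs (655 to 27572) in the vehicle library, against 2599 (RP-6306) and 3042 (vehicle) UMIs in T cells of the same gate with no Mki67 or Top2a UMI. That last group, 3793 (RP-6306) and 2572 (vehicle) cells, is called the other T cells from here on.

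**Figure D1:**
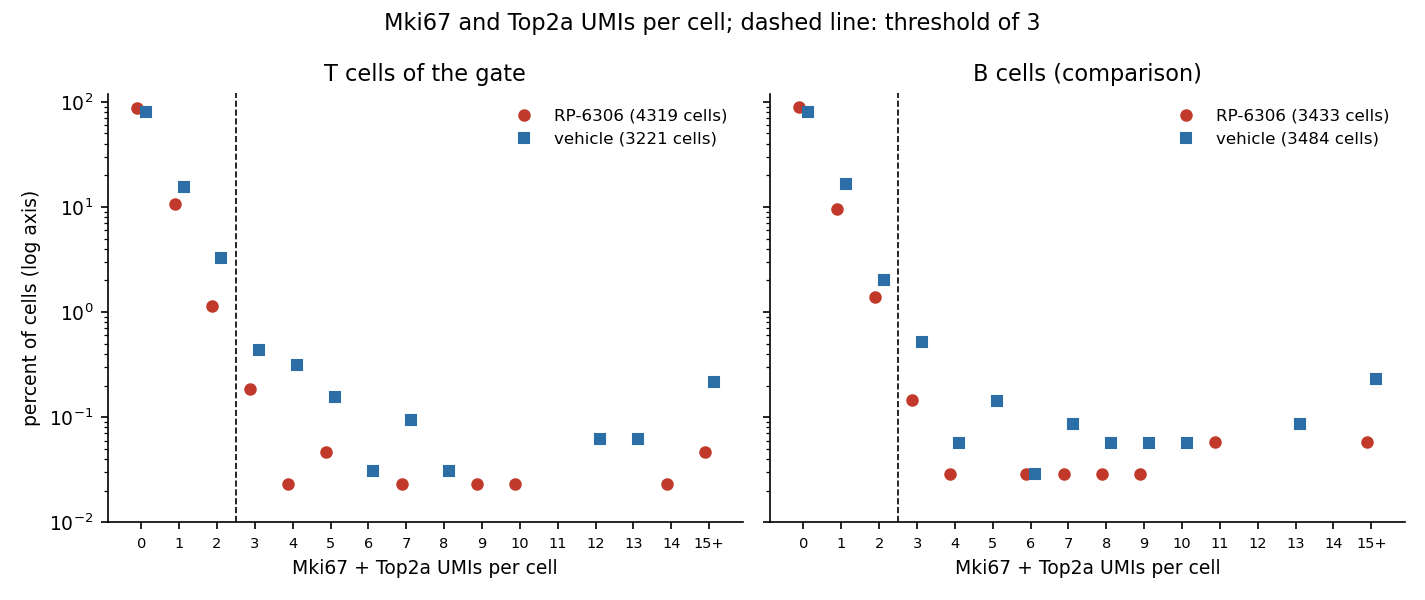
Share of gated T cells (left) and of B cells (right) with each number of Mki67 and Top2a UMIs per cell, in percent on a log axis, for RP-6306 (circles) and vehicle (squares), with numbers held by no cell left blank. Cells to the right of the dashed line have 3 or more UMIs, and in both cell types the vehicle points lie above the RP-6306 points at 1, 2 and 3 UMIs.

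The share of T cells that passed the threshold was lower in the RP-6306 library, and a difference of like size was seen in B cells. Of the gated T cells, 0.394% (exact Clopper-Pearson 95% interval 0.229 to 0.629%) had at least 3 Mki67 and Top2a UMIs in the RP-6306 library and 1.40% (1.02 to 1.87%) in the vehicle library. The log2 ratio of RP-6306 to vehicle was -1.83 (-2.73 to -0.99). It was -0.73 at 1 or more UMIs of the 2 genes. Counted instead by 10 or more UMIs of the S phase and G2/M lists described below, it was -0.25 (35.7% of RP-6306 cells and 42.4% of vehicle cells). T cells with no Mki67 or Top2a UMI also held UMIs of these lists, and a raw count rises with depth. This last count is therefore not one of dividing cells. B cells were used as a type in which most cells would not be dividing, and 0.408% of 3433 B cells in the RP-6306 library and 1.32% of 3484 in the vehicle library passed the same threshold, a log2 ratio of -1.69 (-2.67 to -0.81). Their median depths were 1959 UMIs in RP-6306 cells and 2153 UMIs in vehicle cells, against 2615 (RP-6306) and 3066 (vehicle) UMIs in T cells.

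The T cell shares were thus about the size of the B cell shares in both libraries, so no level of dividing T cells above that of B cells is read from them. The B cell share is not a level free of cells with other cycle RNA, since B cells with 3 or more UMIs held 4444 (RP-6306) and 5684 (vehicle) CPM (UMIs per 1e6 UMIs of the cells summed) of S phase genes, against 1239 (RP-6306) and 1264 (vehicle) CPM in B cells with none. In the RP-6306 library they also held 1632 CPM of a list of tumour genes, against 175 CPM in B cells with none. Their list of B cell genes stood at 1849 CPM there, against 5987 CPM. Whether they were dividing B cells was not tested. How much of either share came from free RNA was not tested. At 6 or more UMIs the T cell shares were 0.139% (6 cells) in the RP-6306 library and 0.497% (16 cells) in the vehicle library, and the B cell shares were 0.233% (8 cells, RP-6306) and 0.603% (21 cells, vehicle). After each cell was thinned to 2000 UMIs, 0.199% of T cells in the RP-6306 library and 0.602% in the vehicle library had at least 3, with 809 (RP-6306) and 397 (vehicle) shallower T cells left out. The thinned B cell shares were 0.431% (RP-6306) and 0.778% (vehicle), with 1807 (RP-6306) and 1428 (vehicle) cells left out. At neither threshold, nor after thinning, did the T cell share stand clear of the B cell share in both libraries.

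RM-1 cells, whose free RNA can give single UMIs in the droplets of other cells, held 686 CPM of the 2 genes in the RP-6306 library and 564 CPM in the vehicle library. Gated T cells averaged 0.171 UMIs of the 2 genes per cell in the RP-6306 library and 0.338 in the vehicle library, and B cells averaged 0.154 (RP-6306) and 0.323 (vehicle). Tumour cells were thus higher in the RP-6306 library in these genes, while T and B cells were lower there, to about the same degree.

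The label "proliferating" held for the cells with many Mki67 and Top2a UMIs and not, as a group, for those at the threshold. It was checked with an S phase list of 47 genes (origin licensing, replication forks, nucleotide enzymes) and a G2/M list of 54 genes (mitotic cyclins, spindle, kinetochore), neither of which holds Mki67 or Top2a. Cells with 6 or more UMIs held a summed 5139 CPM of the S phase genes in the RP-6306 library and 7122 CPM in the vehicle library, against 1432 (RP-6306) and 1322 (vehicle) CPM in the other T cells. Their G2/M genes stood at 8795 CPM in RP-6306 cells and 8532 CPM in vehicle cells, against 1704 (RP-6306) and 1572 (vehicle) CPM in the other T cells. Among the 17 RP-6306 cells, 1 cell held 31.2% of the S phase UMIs and 1 cell held 30.4% of the G2/M UMIs. The median cell with 6 or more UMIs had 4548 (RP-6306) and 5888 (vehicle) CPM of S phase genes. It had 7965 (RP-6306) and 7751 (vehicle) CPM of G2/M genes. Both cycle programmes were thus several-fold higher in these cells in both libraries. Some of these cells lacked receptor RNA or held RNA of other cell types, as given below, and cycle levels without them are not given.

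Cells with exactly 3 UMIs were close to the other T cells in S phase genes, at 1334 CPM in the RP-6306 library and 1379 CPM in the vehicle library. Their G2/M genes stood at 3112 CPM in RP-6306 cells and 2189 CPM in vehicle cells. Cells with 1 or 2 UMIs, just outside the threshold, had 1266 to 1436 CPM of S phase genes and 1514 to 1659 CPM of G2/M genes over both libraries, within the range of cells with none or just beside it. At 4 to 5 UMIs the S phase genes summed to 5749 CPM in 3 RP-6306 cells and 2188.5 CPM in 15 vehicle cells. The median cell there had 1889 CPM (RP-6306) and 1512 CPM (vehicle), against 1362 (RP-6306) and 1252 (vehicle) CPM for the median of the other T cells. S phase genes thus stood clearly apart only at 6 or more UMIs, and G2/M genes at 3 UMIs stood between the other T cells and the cells with 6 or more.

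Cell by cell, 10 of the 17 RP-6306 cells and 25 of the 45 vehicle cells had an S phase or a G2/M level above the 95th percentile of the other T cells of their library. Of the other T cells themselves, 9.70% (RP-6306) and 9.53% (vehicle) passed one or the other mark. The cells above a mark included 5 of the 6 RP-6306 cells and all 16 of the 16 vehicle cells with 6 or more UMIs. Among cells with 3 UMIs, 2 of 8 RP-6306 cells and 2 of 14 vehicle cells were above a mark. The 62 cells are therefore called Mki67- and Top2a-positive T cells below, and values are given for the cells with 6 or more UMIs where they differ.

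**Figure D2:**
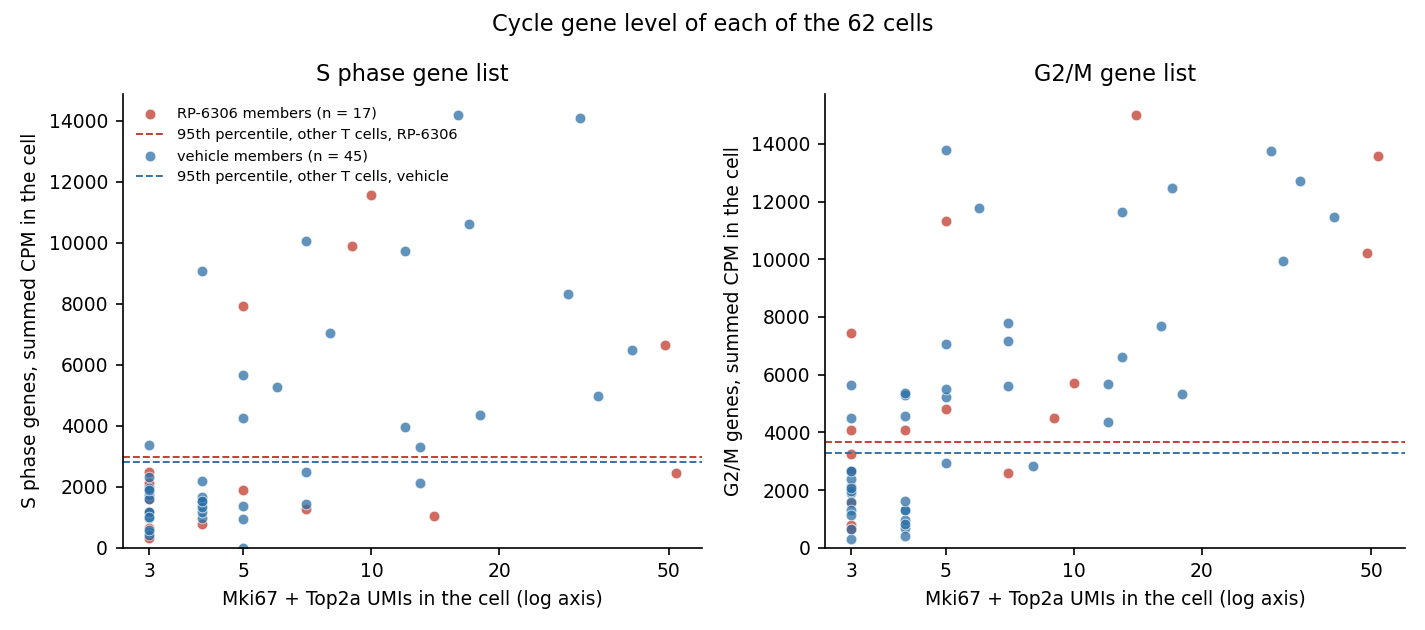
Summed CPM of the S phase list (left) and of the G2/M list (right) in each of the 62 cells against its Mki67 and Top2a UMIs (log axis), RP-6306 in red and vehicle in blue. Dashed lines mark the 95th percentile of the other T cells of each library, and most cells at 3 UMIs lie below them while most cells at 6 or more lie above one of them.

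The levels varied widely among the cells. Per-cell S phase levels were 335, 1889 and 11556 CPM (lowest, median and highest) in RP-6306 cells and 0, 1909 and 14190 CPM in vehicle cells. Per-cell G2/M levels were 637, 4094 and 15009 CPM in RP-6306 cells and 321, 4510 and 13786 CPM in vehicle cells. The groups overlapped over nearly their whole range on both lists. S phase genes exceeded G2/M genes in 4 of 17 RP-6306 cells and 14 of 45 vehicle cells. Among cells with 6 or more UMIs, this held for 2 of 6 RP-6306 cells and 5 of 16 vehicle cells, so both patterns were present in each library. B cells with 6 or more UMIs also carried both lists, with 5090 (RP-6306) and 7952 (vehicle) CPM of S phase genes and 4535 (RP-6306) and 6702 (vehicle) CPM of G2/M genes.

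The promoters of mitotic genes are described here because Mki67 and Top2a, which chose the cells, are such genes. Mitotic genes are known to be repressed outside division by the DREAM complex and switched on in G2 by MuvB with B-MYB and FOXM1, which act through the cell cycle homology region (CHR), and NF-Y binds CCAAT boxes beside it. The stretches of 150 bases just upstream of Mki67 and Top2a, which chose the cells, and of Hmgb2 and Anp32e, the 2 genes of the G2/M list with the most UMIs in these cells, are shown from RefSeq promoters (GRCm38.p6), each 5' to 3' on the gene's strand. Capitals mark the CHR (TTTGAA or TTCGAA) and CCAAT on either strand.
Mki67: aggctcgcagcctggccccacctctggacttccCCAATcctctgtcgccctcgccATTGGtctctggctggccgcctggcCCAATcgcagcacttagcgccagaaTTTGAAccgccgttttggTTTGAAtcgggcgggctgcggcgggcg
Top2a: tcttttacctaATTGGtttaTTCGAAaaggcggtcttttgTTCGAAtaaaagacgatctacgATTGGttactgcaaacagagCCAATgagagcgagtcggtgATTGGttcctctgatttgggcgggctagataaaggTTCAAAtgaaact
Hmgb2: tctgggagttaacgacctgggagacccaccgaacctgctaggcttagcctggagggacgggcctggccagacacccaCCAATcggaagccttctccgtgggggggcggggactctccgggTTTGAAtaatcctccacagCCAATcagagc
Anp32e: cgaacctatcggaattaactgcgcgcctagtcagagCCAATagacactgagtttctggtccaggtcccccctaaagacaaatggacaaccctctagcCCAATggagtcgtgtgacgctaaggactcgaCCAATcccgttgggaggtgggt

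These stretches lie at chr7:135716451-135716600 (minus strand) for Mki67, chr11:99024200-99024349 (minus strand) for Top2a, chr8:57511693-57511842 (plus strand) for Hmgb2 and chr3:95929095-95929244 (plus strand) for Anp32e. The Mki67 stretch holds 2 CHR and 3 CCAAT matches, the Top2a stretch 3 and 4, the Hmgb2 stretch 1 and 2, and the Anp32e stretch 0 and 3. Of the 54 G2/M genes, 47 had a promoter in the table, and within 250 bases upstream 20 of them (42.6%) held a CHR match, against 19.6% of all 27025 genes in the table. CCAAT was present in 37 of the 47 (78.7%), against 37.5% of all genes, and both motifs in 18 (38.3%), against 7.0%. An E2F-like motif (TTTGGCGC, TTTCGCGC or TTTCCCGC) was present in 3 (6.38%), against 1.78% of all genes. These are letter matches and not sites shown to be bound. The S phase list matched only 35 of its 47 genes in the table and the replication histones 0 of 36, too few of either list for a share to stand for it.

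The cells carried T cell receptor RNA. At least 1 UMI of the receptor constant genes Trac, Trbc1 or Trbc2 was present in 16 of 17 RP-6306 cells (94.1%) and 40 of 45 vehicle cells (88.9%). Among all gated T cells it was present in 3961 of 4319 (RP-6306) and 2941 of 3221 (vehicle). Of B cells 7.95% (RP-6306) and 10.8% (vehicle) had one, but they were gated to hold no Cd3 UMI and were shallower. The contrast with B cells is thus partly set by the gate and by depth. The median cell had 5 Cd3 UMIs in the RP-6306 library and 4 in the vehicle library, against 2 in gated T cells of either library, and 3 RP-6306 cells and 10 vehicle cells rested on a single Cd3 UMI. Cd3e, a signalling chain of the receptor complex, stood at 212 CPM in RP-6306 cells and 198 CPM in vehicle cells, against 276 (RP-6306) and 250 (vehicle) CPM in the other T cells. The T cell identity was thus carried by most of the cells and was thin in a few.

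CD8 and CD4 cells were both present. By the coreceptor genes Cd8a, Cd8b1 and Cd4, the RP-6306 cells were 6 CD8, 4 CD4 and 7 with neither, and the vehicle cells were 18 CD8, 9 CD4, 1 with both and 17 with neither. CD8 made up 60.0% of the cells with one coreceptor in the RP-6306 library (26.2 to 87.8%) and 66.7% in the vehicle library (46.0 to 83.5%), against 62.7% (RP-6306) and 74.4% (vehicle) of the other T cells with one coreceptor. At these cell numbers no difference in makeup was detectable, between the libraries or from the other T cells. The share passing the threshold was 0.355% of CD8 T cells and 0.403% of CD4 T cells in the RP-6306 library, and 1.21% and 1.63% in the vehicle library. The measured share was thus lower in the RP-6306 library in both lineages, on 6 CD8 and 4 CD4 cells there and 18 CD8 and 9 CD4 cells in the vehicle library. The B cell share was lower there as well.

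Several cells held RNA of other cell types, and these are given beside the results they touch. In the RP-6306 library 2 cells held over 100 UMIs of MHC class II genes (402 and 421). One of them was the cell with the most Mki67 and Top2a UMIs (52), and it had 1 Cd3 UMI and no receptor constant UMI. The other also had 1 Cd3 UMI, 7 receptor constant UMIs and 24 macrophage list UMIs. In the vehicle library 5 cells, all with 6 or more Mki67 and Top2a UMIs, held at least 5 UMIs of the tumour list, and 2 of them had no receptor constant UMI.

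One further vehicle cell, with 4 Top2a UMIs and 21629 UMIs in all, held 926 UMIs of the cytotoxic list. Setting aside cells with no receptor constant UMI, with 5 or more tumour list UMIs or with over 100 MHC class II UMIs, 4 of the 6 RP-6306 cells and 11 of the 16 vehicle cells with 6 or more Mki67 and Top2a UMIs were left. Summed over the cells, the MHC class II list stood at 6317 CPM in RP-6306 cells and 315 CPM in vehicle cells, against 89.6 (RP-6306) and 179 (vehicle) CPM in the other T cells. The tumour list stood at 22.7 CPM in RP-6306 cells and 201 CPM in vehicle cells, against 52.3 (RP-6306) and 131 (vehicle) CPM in the other T cells. The macrophage list stood at 197 CPM in RP-6306 cells and 53.7 CPM in vehicle cells, against 18.3 (RP-6306) and 23.9 (vehicle) CPM in the other T cells. Their part in the results below was not tested beyond the values given without these cells.

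**Figure D3:**
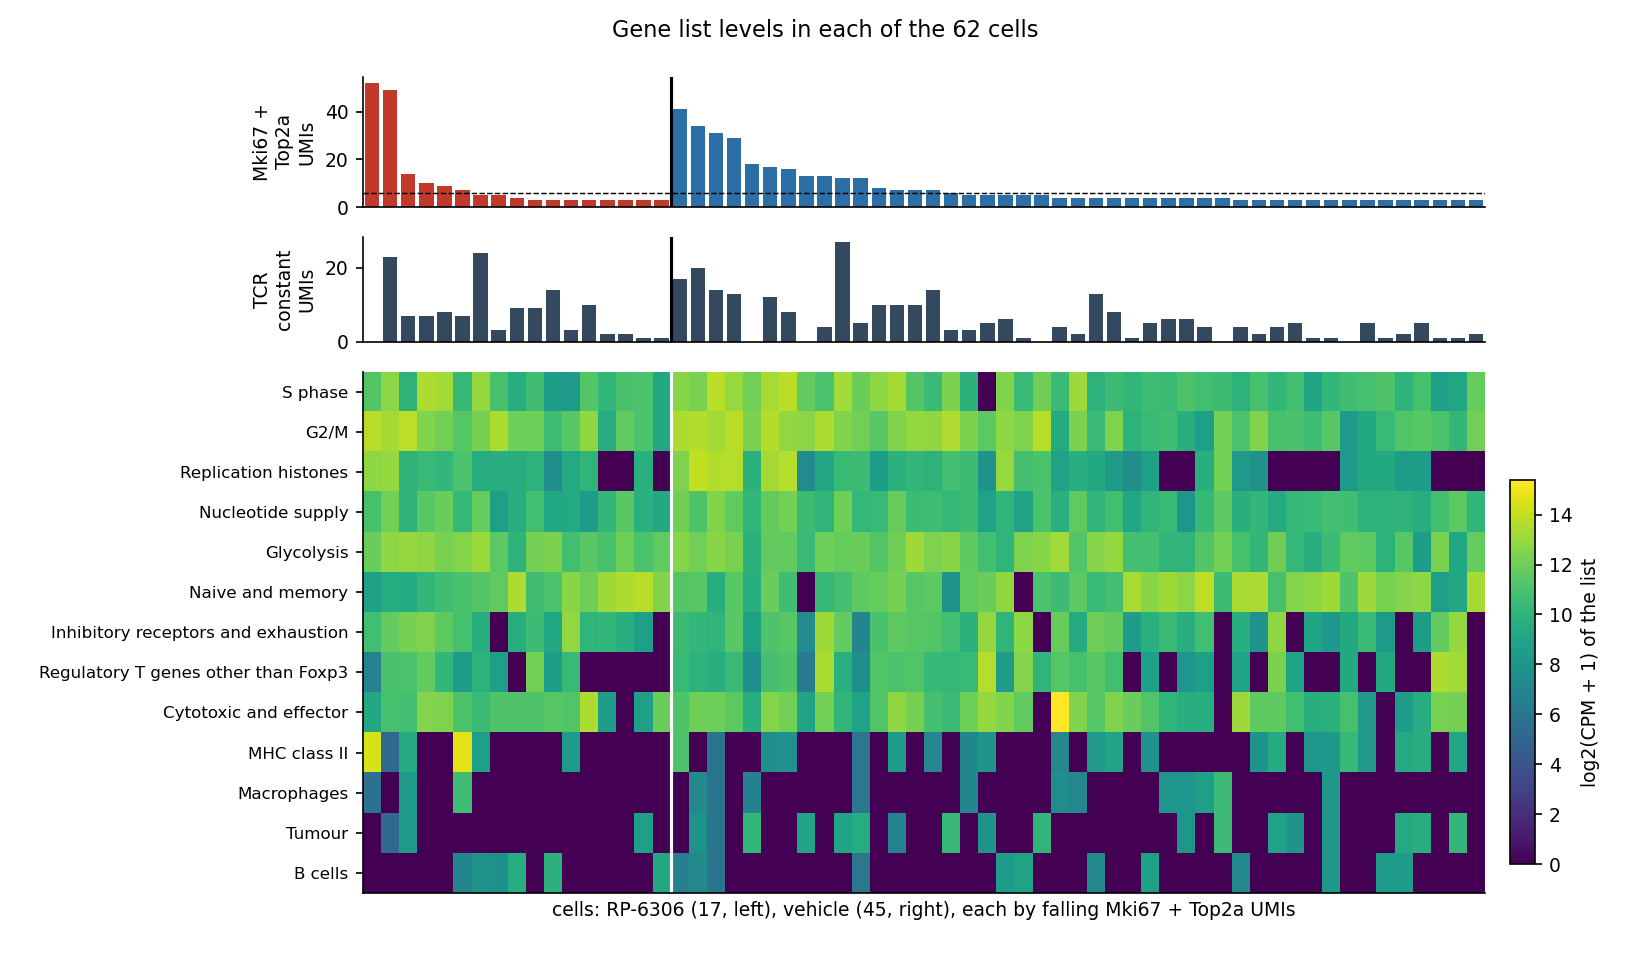
Each column is 1 of the 62 cells, RP-6306 cells to the left of the line and vehicle cells to the right, ordered by falling Mki67 and Top2a UMIs (top bars, dashed line at 6). The middle bars give T cell receptor constant UMIs, and the colours give log2(CPM + 1) of each gene list, with 2 RP-6306 cells bright in MHC class II and 1 vehicle cell bright in the cytotoxic list.

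Set against the other T cells, the Mki67- and Top2a-positive cells were higher in the genes of both S phase and mitosis. Of 10560 genes with at least 20 UMIs in each library, 870 (8.24%) were higher by more than 2-fold in both libraries and 651 (6.16%) were lower. Among the 5336 genes with at least 5 UMIs expected or seen in these cells in each library, 10.4% were higher and 3.0% lower, since a gene with few expected UMIs is easily at 0. Of the 50 measured G2/M genes 43 were higher and 0 lower, with a median log2 ratio of 3.14 in the RP-6306 library and 2.47 in the vehicle library. Of the 46 measured S phase genes 33 were higher and 0 lower, with medians of 2.15 (RP-6306) and 2.05 (vehicle), where the median of all genes was 0.05 (RP-6306) and 0.14 (vehicle). Ratios are of CPM + 1, in the Mki67- and Top2a-positive cells over the other T cells, and mean no more than the choice of the cells allows. With size factors in place of totals, the median over all genes moved to -0.30 and the share of higher genes among those past 2-fold from 57.2% to 36.8%.

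Among mitotic genes, Birc5, which encodes survivin, a subunit of the chromosomal passenger complex, had 167 CPM in RP-6306 cells and 117 CPM in vehicle cells, against 4.97 (RP-6306) and 7.65 (vehicle) CPM in the other T cells. Cdca8, which encodes borealin of the same complex, had 129 CPM in RP-6306 cells and 107 CPM in vehicle cells, against 3.41 (RP-6306) and 6.27 (vehicle) CPM in the other T cells. Hmgb2, a chromatin protein whose promoter is shown above, had 1424 CPM in RP-6306 cells and 1255 CPM in vehicle cells, against 161 (RP-6306) and 153 (vehicle) CPM in the other T cells. Stmn1, which destabilises microtubules, had 409 CPM in RP-6306 cells and 413 CPM in vehicle cells, against 32.6 (RP-6306) and 23.8 (vehicle) CPM in the other T cells, log2 ratios of 3.61 (RP-6306) and 4.06 (vehicle). The mitotic genes were thus high to a similar level in both libraries.

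Among S phase genes, Pclaf, a partner of the replication clamp PCNA, had 205 CPM in RP-6306 cells and 258 CPM in vehicle cells, against 7.12 (RP-6306) and 9.15 (vehicle) CPM in the other T cells, log2 ratios of 4.66 (4.15 to 5.50) and 4.68 (4.34 to 5.30). Pcna itself had 326 CPM in RP-6306 cells and 336 CPM in vehicle cells, against 116 (RP-6306) and 110 (vehicle) CPM in the other T cells. Rrm2, the regulated subunit of ribonucleotide reductase, had 167 CPM in RP-6306 cells and 164 CPM in vehicle cells, against 11 (RP-6306) and 8.77 (vehicle) CPM in the other T cells, and Tyms, thymidylate synthase, had 129 CPM in RP-6306 cells and 90.6 CPM in vehicle cells, against 6.63 (RP-6306) and 5.64 (vehicle) CPM in the other T cells. Pcna was the gene of these with the highest level in the other T cells. Of 25 measured genes of nucleotide supply 9 were higher and 1 lower, among them Dut, the dUTPase that keeps uracil out of DNA, at 258 CPM in RP-6306 cells and 232 CPM in vehicle cells against 34.5 (RP-6306) and 39.2 (vehicle) CPM in the other T cells.

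The target of the drug was measured in few molecules. Pkmyt1 (chr17:23726336-23736735, mm10) had 5 UMIs in 4 of the 17 RP-6306 cells and 9 UMIs in 7 of the 45 vehicle cells, or 37.9 CPM in RP-6306 cells and 30.2 CPM in vehicle cells, against 7.61 (RP-6306) and 7.14 (vehicle) CPM in the other T cells, with log2 ratios of 2.17 (0.65 to 3.60) and 1.94 (0.88 to 3.10). Wee1, the nuclear kinase that phosphorylates CDK1 beside PKMYT1, had 6 UMIs in RP-6306 cells and 14 UMIs in vehicle cells, or 45.4 CPM in RP-6306 cells and 47.0 CPM in vehicle cells, against 3.80 (RP-6306) and 3.89 (vehicle) CPM in the other T cells. Cdk1 had 6 UMIs in RP-6306 cells and 14 UMIs in vehicle cells as well, at 45.4 CPM in RP-6306 cells and 47.0 CPM in vehicle cells, against 5.95 (RP-6306) and 7.27 (vehicle) CPM in the other T cells. Both inhibitory kinases and their substrate were thus higher in these cells, in each library.

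Of the 17 measured genes of the PKMYT1, WEE1 and CDK1 switch, 11 were higher and 0 lower, with medians of 2.46 (RP-6306) and 2.29 (vehicle). The cyclins of CDK1 were among them. Ccnb2 had 83.3 CPM in RP-6306 cells and 70.5 CPM in vehicle cells, against 2.44 (RP-6306) and 3.26 (vehicle) CPM in the other T cells, and Ccna2 had 121 CPM in RP-6306 cells and 80.5 CPM in vehicle cells, against 4.58 (RP-6306) and 4.64 (vehicle) CPM in the other T cells. Plk1, the kinase that promotes mitotic entry, had 37.9 CPM in RP-6306 cells and 47.0 CPM in vehicle cells, against 4.29 (RP-6306) and 5.14 (vehicle) CPM in the other T cells.

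The clustered replication histones, whose mRNAs mostly lack a poly(A) tail and are captured only in part by a 3' kit, followed the same direction. Of 19 measured, 14 were higher and 0 lower, with medians of 3.11 (RP-6306) and 3.04 (vehicle). Hist1h1b, a linker histone, had 788 CPM in RP-6306 cells and 1091 CPM in vehicle cells, against 25.5 (RP-6306) and 26.8 (vehicle) CPM in the other T cells, log2 ratios of 4.90 (RP-6306) and 5.29 (vehicle). In the cells with 6 or more UMIs the list stood at 5139 CPM in RP-6306 cells and 5452 CPM in vehicle cells, and in those with 3 to 5 UMIs at 671 CPM in RP-6306 cells and 652 CPM in vehicle cells, against 325 (RP-6306) and 299 (vehicle) CPM in the other T cells. In RP-6306 cells, 1 cell held 51.2% of the list's UMIs, and in vehicle cells 1 cell held 20.5%. The median cell with 6 or more UMIs had 1695 CPM (RP-6306) and 1417 CPM (vehicle), well below the sums. At 3 to 5 UMIs the median cell had 754 CPM (RP-6306) and 336 CPM (vehicle). The median cell was thus higher at 6 or more UMIs in both libraries, by less than the sums, which rested in large part on a few cells.

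Brakes on the cycle differed among themselves. Of 16 quiescence regulators 0 were higher and 5 lower, with medians of -1.07 (RP-6306) and -0.97 (vehicle). Foxp1, a transcription factor that holds naive T cells at rest, had 318 CPM in RP-6306 cells and 450 CPM in vehicle cells, against 1239 (RP-6306) and 1273 (vehicle) CPM in the other T cells. Cdkn1b, which encodes the CDK inhibitor p27, did not pass 2-fold in both libraries, at 212 CPM in RP-6306 cells and 101 CPM in vehicle cells against 308 (RP-6306) and 205 (vehicle) CPM in the other T cells. Cdkn1a, which encodes p21 and is a p53 target, was higher, with 144 CPM in RP-6306 cells and 141 CPM in vehicle cells against 21.8 (RP-6306) and 32.7 (vehicle) CPM in the other T cells. Cdk6, the G1 kinase partner of D cyclins, had 220 CPM in RP-6306 cells and 262 CPM in vehicle cells, against 49.9 (RP-6306) and 71.7 (vehicle) CPM in the other T cells.

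Genes of naive and resting memory T cells were lower. Of 16 measured, 0 were higher and 12 lower, with median log2 ratios of -2.16 (RP-6306) and -1.53 (vehicle), and the list summed to 2507 CPM in RP-6306 cells and 3326 CPM in vehicle cells, against 9817 (RP-6306) and 8013 (vehicle) CPM in the other T cells. Lef1, a transcription factor of naive T cells, had 114 CPM in RP-6306 cells and 329 CPM in vehicle cells, against 1245 (RP-6306) and 1056 (vehicle) CPM in the other T cells. Il7r, the receptor of the survival cytokine IL-7, had 273 CPM in RP-6306 cells and 289 CPM in vehicle cells, against 1260 (RP-6306) and 718 (vehicle) CPM in the other T cells. The list was lower the more Mki67 and Top2a a cell carried, and stood at 4568 (RP-6306) and 4941 (vehicle) CPM in cells with 3 to 5 UMIs and at 1028 (RP-6306) and 2170 (vehicle) CPM in cells with 6 or more.

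Klf2, which drives exit from tissues and quiescence, had 114 CPM in RP-6306 cells and 128 CPM in vehicle cells, against 637 (RP-6306) and 382 (vehicle) CPM in the other T cells. S1pr1, the receptor for egress that Klf2 induces, had 75.7 CPM in RP-6306 cells and 83.9 CPM in vehicle cells, against 396 (RP-6306) and 262 (vehicle) CPM in the other T cells. Tcf7, the factor of naive and stem-like T cells, had 197 CPM in RP-6306 cells and 154 CPM in vehicle cells, against 590 (RP-6306) and 468 (vehicle) CPM in the other T cells, so it was lower and not lost.

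Inhibitory receptors and other genes of exhausted T cells were higher. Of 17 measured, 13 were higher and 0 lower, with medians of 2.65 (RP-6306) and 1.87 (vehicle). Pdcd1, which encodes PD-1, had 106 CPM in RP-6306 cells and 53.7 CPM in vehicle cells, against 3.41 (RP-6306) and 8.15 (vehicle) CPM in the other T cells. Tigit had 174 CPM in RP-6306 cells and 80.5 CPM in vehicle cells, against 22.4 (RP-6306) and 25.8 (vehicle) CPM in the other T cells, and Ctla4 had 288 CPM in RP-6306 cells and 403 CPM in vehicle cells, against 89.2 (RP-6306) and 109 (vehicle) CPM in the other T cells. Havcr2, which encodes TIM-3, rested on 5 UMIs in RP-6306 cells and 35 UMIs in vehicle cells, at 37.9 CPM in RP-6306 cells and 117 CPM in vehicle cells against 2.05 (RP-6306) and 12 (vehicle) CPM in the other T cells, and in CD4 cells alone its mean log2 ratio was -0.25.

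Tox, the transcription factor that installs the exhausted state, was not among the higher genes, at 242 CPM in RP-6306 cells and 326 CPM in vehicle cells against 537 (RP-6306) and 486 (vehicle) CPM in the other T cells. Eomes, a T-box factor of memory and exhausted CD8 cells, had 75.7 CPM in RP-6306 cells and 57.1 CPM in vehicle cells, against 11 (RP-6306) and 16.8 (vehicle) CPM in the other T cells. Bhlhe40, a factor induced by activation, had 386 CPM in RP-6306 cells and 282 CPM in vehicle cells, against 21.6 (RP-6306) and 52 (vehicle) CPM in the other T cells, and Id2, which favours effector cells, had 379 CPM in RP-6306 cells and 359 CPM in vehicle cells, against 64.5 (RP-6306) and 74.8 (vehicle) CPM in the other T cells. The list summed to 2862 (RP-6306) and 1894 (vehicle) CPM in cells with 6 or more UMIs and 1196 (RP-6306) and 2213 (vehicle) CPM in cells with 3 to 5. In the vehicle library the sum thus did not climb between these 2 groups, while the median cell did. The median vehicle cell had 647 CPM among the other T cells, 818 CPM at 3 to 5 UMIs and 2111 CPM at 6 or more.

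Activation genes were mixed, with 6 of 21 higher and 2 lower. Tnfrsf9, the costimulator 4-1BB, had 189 CPM in RP-6306 cells and 315 CPM in vehicle cells, against 12.4 (RP-6306) and 40.2 (vehicle) CPM in the other T cells. Cd44, an adhesion receptor of activated and memory cells, had 212 CPM in RP-6306 cells and 349 CPM in vehicle cells, against 64.1 (RP-6306) and 131 (vehicle) CPM in the other T cells. Icos, a costimulator, did not pass 2-fold, at 227 CPM in RP-6306 cells and 148 CPM in vehicle cells against 157 (RP-6306) and 136 (vehicle) CPM in the other T cells. Cd40lg, the CD4 helper signal for B cells and dendritic cells, had 0 UMIs in RP-6306 cells and 3 UMIs in vehicle cells, and it stood at 42.4 (RP-6306) and 30.3 (vehicle) CPM in the other T cells.

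Genes of a regulatory T cell pattern were also higher although Foxp3-positive cells had been removed. Of 12 measured 7 were higher and 1 lower, with medians of 1.63 (RP-6306) and 1.54 (vehicle), and the list summed to 1265 CPM in RP-6306 cells and 1698 CPM in vehicle cells, against 360 (RP-6306) and 513 (vehicle) CPM in the other T cells. The list shares Ctla4, Tigit and Tnfrsf9 with the groups above. At least 20 of its UMIs were present in 3 RP-6306 cells and 7 vehicle cells. Tnfrsf4, the costimulator OX40, had 114 CPM in RP-6306 cells and 53.7 CPM in vehicle cells, against 8.49 (RP-6306) and 13.8 (vehicle) CPM in the other T cells.

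Of 20 cytotoxic and effector genes 7 were higher and 1 lower, with a mean of the 2 libraries' ratios whose median was 1.32, and -0.25 in cells with 6 or more Mki67 and Top2a UMIs, where 6 genes had a mean past 2-fold above and 6 below. One vehicle cell held 53.2% of the list's UMIs in vehicle cells. The NK cell list stood beside it at 136 CPM in RP-6306 cells and 255 CPM in vehicle cells, against 35.3 (RP-6306) and 73.3 (vehicle) CPM in the other T cells, and its part in the result was not tested. Nkg7, a granule protein, had 515 CPM in RP-6306 cells and 685 CPM in vehicle cells, against 220 (RP-6306) and 269 (vehicle) CPM in the other T cells. Within the cells it was the one gene past the size rule between CD8 and CD4 cells, with 1064 (RP-6306) and 873 (vehicle) CPM in CD8 cells, against 420 (RP-6306) and 49.9 (vehicle) CPM in CD4 cells. Gzmk, a granzyme of memory-like CD8 cells, had 45.4 CPM in RP-6306 cells and 101 CPM in vehicle cells, against 4.0 (RP-6306) and 4.76 (vehicle) CPM in the other T cells. Ccl5, a chemokine of memory and effector T cells, did not pass 2-fold, at 167 CPM in RP-6306 cells and 349 CPM in vehicle cells against 231 (RP-6306) and 409 (vehicle) CPM in the other T cells.

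Of the 18 homing genes 6 were higher and 4 lower. Ccr2, a chemokine receptor of inflamed tissue, had 53 CPM in RP-6306 cells and 121 CPM in vehicle cells, against 5.66 (RP-6306) and 15.5 (vehicle) CPM in the other T cells, from 7 UMIs in RP-6306 cells and 36 UMIs in vehicle cells. Ccr7, the receptor that leads naive T cells to lymph nodes, was lower, with 75.7 CPM in RP-6306 cells and 90.6 CPM in vehicle cells against 401 (RP-6306) and 254 (vehicle) CPM in the other T cells. In CD4 cells alone, the mean log2 ratio of Ccr2 was below 0, at -0.35.

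Glycolysis genes were higher. Of 19 glycolysis genes 11 were higher and 1 lower, and the list summed to 5506 CPM in RP-6306 cells and 4259 CPM in vehicle cells, against 1762 (RP-6306) and 1931 (vehicle) CPM in the other T cells. Gapdh, a glycolytic enzyme, had 1068 CPM in RP-6306 cells and 836 CPM in vehicle cells, against 229 (RP-6306) and 258 (vehicle) CPM in the other T cells, and Odc1, which makes polyamines for growth, had 379 CPM in RP-6306 cells and 359 CPM in vehicle cells, against 75.3 (RP-6306) and 95.8 (vehicle) CPM in the other T cells. Of 39 nuclear genes of oxidative phosphorylation 4 were higher and 0 lower, with medians of 0.96 (RP-6306) and 0.56 (vehicle). None of 20 nucleolar and ribosome assembly genes passed 2-fold in both libraries.

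Interferon-stimulated genes were lower or level. Of 31 measured 1 was higher and 7 lower, with medians of -0.79 (RP-6306) and -0.78 (vehicle), and the list summed to 2333 CPM in RP-6306 cells and 2319 CPM in vehicle cells, against 3112 (RP-6306) and 3106 (vehicle) CPM in the other T cells. With genes at 0 UMIs set to their bound of 3 UMIs, the medians were -0.40 (RP-6306) and -0.76 (vehicle). Ifi213, an interferon-induced gene outside the list, had 45.4 CPM in RP-6306 cells and 36.9 CPM in vehicle cells, against 345 (RP-6306) and 260 (vehicle) CPM in the other T cells. The summed list was at the level of the other T cells or above in cells with 3 to 5 UMIs (3535 CPM in RP-6306 cells and 3114 CPM in vehicle cells) and lower in cells with 6 or more (1470 CPM in RP-6306 cells and 1750 CPM in vehicle cells). The median cell of the other T cells had 2367 CPM (RP-6306) and 2629 CPM (vehicle). At 6 or more UMIs the median cell had 2526 CPM (RP-6306) and 1632 CPM (vehicle), so by this measure only the vehicle cells were lower.

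**Figure D4:**
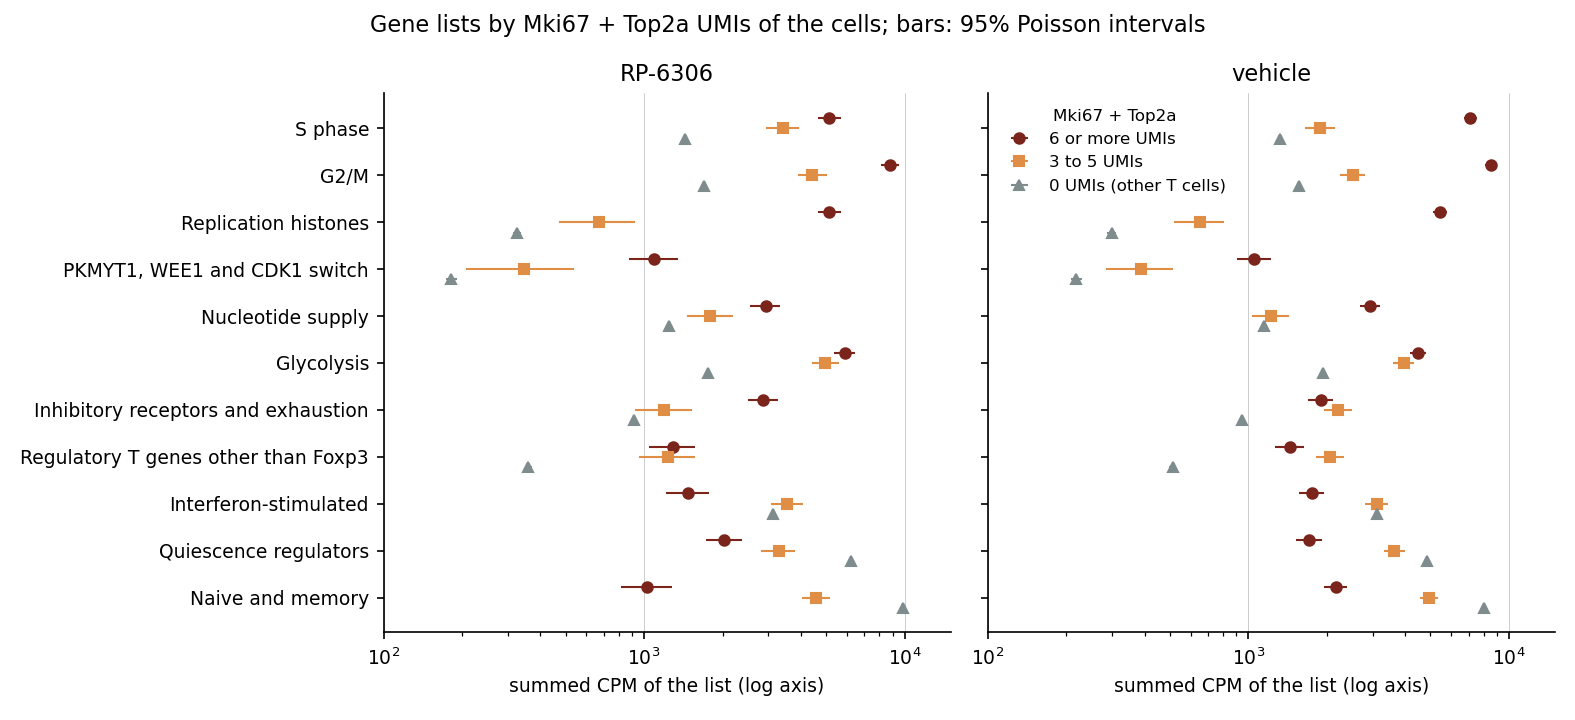
Summed CPM (log axis) of 11 gene lists in T cells with 6 or more, 3 to 5, and 0 Mki67 and Top2a UMIs, RP-6306 on the left and vehicle on the right, with 95% Poisson intervals. Cycle lists step up and the naive and memory and quiescence lists step down as Mki67 and Top2a increase, while the summed interferon list is lower only at 6 or more UMIs. The median RP-6306 cell with 6 or more UMIs was not lower in the interferon list. The naive and memory list had 1028 CPM at 6 or more UMIs in the RP-6306 library, against 9817 CPM at 0.

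By size alone, the genes furthest above the other T cells at 50 CPM or more were Hist1h1b, Stmn1, S100a4, Bhlhe40, Hist1h1e, Hmgb2, Anxa2, Lgals1, Itgav, Id2, Odc1 and H2afz. Beside the cycle and chromatin genes this set holds S100a4, Anxa2 and Lgals1, an S100, an annexin and a galectin gene that activated and effector T cells express. Lgals1 had 863 CPM in RP-6306 cells and 1054 CPM in vehicle cells, against 124 (RP-6306) and 213 (vehicle) CPM in the other T cells. S100a4 had 409 CPM in RP-6306 cells and 305 CPM in vehicle cells, against 19.7 (RP-6306) and 58.3 (vehicle) CPM in the other T cells.

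The genes furthest below were Abca1, St8sia6, Fam241a, Zfp831, Ifi206, Ifi213, Igfbp4, Abcg1, Rab3ip, Arl4c, Lef1 and St8sia1. Abca1 and Abcg1 encode cholesterol exporters. Abca1 had 0 UMIs in RP-6306 cells, at least 3.82-fold lower than the 86.9 CPM of the other T cells by a floor of 3 UMIs over the group, and 5 UMIs (16.8 CPM) in vehicle cells, against 56.7 CPM. Abcg1 had 15.1 CPM in RP-6306 cells and 10.1 CPM in vehicle cells, against 81.1 (RP-6306) and 83.8 (vehicle) CPM in the other T cells. Apart from Lef1, each of these rested on at most 16 UMIs in either library.

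The comparison that addresses the drug is between the 17 RP-6306 cells and the 45 vehicle cells. Several abundant cycle genes were measured at similar levels in both, while more S phase genes were lower than higher in RP-6306 cells. The genes furthest apart rested for the most part on a few cells. Of 4144 genes with at least 20 UMIs over both, 675 (16.3%) were higher in RP-6306 cells by more than 1.5-fold and 772 (18.6%) were lower. The median log2 ratio of RP-6306 over vehicle was 0.03 over all genes and -0.19 with size factors, which moved the share of higher genes among those past 1.5-fold from 46.6% to 25.9%.

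Of 33 measured S phase genes 3 were higher and 10 lower, with a median of -0.04, where 16.3% of all measured genes were higher and 18.6% lower. In cells with 6 or more UMIs the S phase list summed to 5139 CPM (4645 to 5672) in RP-6306 cells and 7122 CPM (6730 to 7530) in vehicle cells. With 6 RP-6306 cells and 16 vehicle cells from 1 library each, an S phase difference was left undetermined. Of 38 G2/M genes 8 were higher and 3 lower, with a median of 0.25, which was 0.03 with size factors and -0.56 in CD8 cells alone. Of 6 measured switch genes 0 were higher and 1 lower. The S phase median was 0.26 in CD8 cells alone and -1.44 in CD4 cells alone, so its sign depended on which cells were taken.

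Pkmyt1, at 37.9 CPM in RP-6306 cells and 30.2 CPM in vehicle cells, had a log2 ratio of 0.32 (-1.60 to 2.06), an interval that holds a 3-fold lower as well as a 4-fold higher level. Wee1 and Cdk1 each had a ratio of -0.05 (-1.71 to 1.42). Some better measured cycle genes had narrower intervals around no difference. Hmgb2 had a ratio of 0.18 (-0.08 to 0.44), Stmn1 -0.01 (-0.50 to 0.46), Pcna -0.04 (-0.59 to 0.49) and Rrm2 0.02 (-0.78 to 0.77).

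H2afz, the variant histone H2A.Z, was an exception among abundant cycle genes. It had 1220 CPM in RP-6306 cells, with UMIs in 15 of 17, and 648 CPM in vehicle cells, with UMIs in 34 of 45, a ratio of 0.91 (0.60 to 1.22), though in CD4 cells alone the ratio was -0.44. Cks1b, a CDK-binding subunit, had 189 CPM in RP-6306 cells and 53.7 CPM in vehicle cells, a ratio of 1.80 (0.86 to 2.82) from 25 UMIs in RP-6306 cells and 16 UMIs in vehicle cells. Cdkn1b, which encodes p27, had 212 CPM in RP-6306 cells and 101 CPM in vehicle cells, a ratio of 1.07 (0.28 to 1.87). Rrm1, the other subunit of ribonucleotide reductase, was lower, with 90.9 CPM in RP-6306 cells and 225 CPM in vehicle cells and a ratio of -1.30 (-2.33 to -0.41).

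Replication stress and DNA damage genes had 1 of 11 higher and 5 lower, with a median of -0.14. Of all measured genes 16.3% were higher and 18.6% lower. Brca1, which protects stalled forks and repairs breaks, had 4 UMIs in RP-6306 cells and 32 UMIs in vehicle cells, or 30.3 CPM in RP-6306 cells and 107 CPM in vehicle cells, a ratio of -1.79 (-3.79 to -0.33). Hist1h1b had 788 CPM in RP-6306 cells and 1091 CPM in vehicle cells, a ratio of -0.47 (-0.80 to -0.15) that did not pass 1.5-fold, and 48.1% of its RP-6306 UMIs lay in 1 cell. Of 12 measured replication histones 2 were higher and 2 lower.

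Of 14 nucleolar and ribosome assembly genes 7 were higher and 0 lower, with a median of 0.53, which was 0.31 with size factors, 0.12 after thinning and 0.23 with the top cell of each gene left out. One RP-6306 cell held 41.1% of the 643 UMIs of this list in RP-6306 cells, and the median cell had 2809 CPM of it in RP-6306 cells and 2688 CPM in vehicle cells. Pa2g4, a growth-regulated nucleolar protein, had 348 CPM in RP-6306 cells and 185 CPM in vehicle cells, and Eif4a1, the helicase that opens mRNA for translation, had 447 CPM in RP-6306 cells and 252 CPM in vehicle cells. Of 13 glycolysis genes 4 were higher and 0 lower, with a median of 0.35, and of 38 oxidative phosphorylation genes 7 were higher and 1 lower, with a median of 0.32, where 16.3% of all measured genes were higher. Arpc3, a subunit of the actin-branching ARP2/3 complex, was the most evenly spread of the 12 genes furthest above, with UMIs in 15 of 17 RP-6306 cells and 27 of 45 vehicle cells, at 462 CPM in RP-6306 cells and 188 CPM in vehicle cells and a ratio of 1.29 (0.75 to 1.85).

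The other genes furthest above in RP-6306 cells were dominated by MHC class II. H2-Eb1 had 118 UMIs in RP-6306 cells and 8 in vehicle cells, H2-Aa 171 (RP-6306) and 13 (vehicle), H2-Ab1 91 (RP-6306) and 11 (vehicle), and Cd74, the invariant chain, 403 (RP-6306) and 54 (vehicle). These UMIs lay in at most 4 of the 17 RP-6306 cells for any of the 4 genes, mainly the pair described above. Without that pair and the vehicle cell rich in granzymes, the ratio was -1.46 for Cd74 and -1.18 for H2-Aa. Plxdc2 had 57 UMIs in RP-6306 cells and 4 in vehicle cells, with 100% of the RP-6306 UMIs in 1 cell, Ifitm1 84 UMIs in RP-6306 cells and 11 UMIs in vehicle cells with 96.4% in 1 cell, and Cst3 299 UMIs in RP-6306 cells and 26 UMIs in vehicle cells with 78.9% in 1 cell. S100a11, spread over 14 RP-6306 cells and 35 vehicle cells, had 1098 CPM in RP-6306 cells and 487 CPM in vehicle cells.

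The genes furthest below in RP-6306 cells were dominated by granzymes of 1 vehicle cell. Gzmd had 0 UMIs in RP-6306 cells and 432 in vehicle cells, Gzmf 0 (RP-6306) and 268 (vehicle), Gzmg 0 (RP-6306) and 250 (vehicle), and Gzme 0 (RP-6306) and 155 (vehicle), each with 100% of its UMIs in that 1 cell. Gzmc had 0 UMIs in RP-6306 cells and 394 UMIs in vehicle cells, with 91.9% in 1 cell, and Prf1, which encodes perforin, had 2 UMIs in RP-6306 cells and 79 in vehicle cells, with 86.1% in 1 cell. The cytotoxic list had a median of -1.10 with 0 of 12 genes higher and 7 lower, where 18.6% of all measured genes were lower. Its median was 0.27 among CD8 cells alone, where the sign turned.

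Gzmb, the main granzyme of activated CD8 cells, was spread more widely, with 8 UMIs in 2 of 17 RP-6306 cells and 233 UMIs in 18 of 45 vehicle cells. Its ratio was -3.67 (-4.92 to -2.69), and -2.22 without the 3 cells rich in MHC class II or granzymes. Ccl5 had 167 CPM in RP-6306 cells and 349 CPM in vehicle cells, a ratio of -1.06 (-1.80 to -0.39), and -0.18 after thinning. Glis3, Dst and Ank3, at 0, 2 and 1 UMIs in RP-6306 cells and 71, 98 and 64 UMIs in vehicle cells, stand beside tumour list levels of 22.7 CPM in RP-6306 cells and 201 CPM in vehicle cells, and RM-1 cells held 656 CPM of Dst in the RP-6306 library and 754 CPM in the vehicle library. The part of tumour RNA in these 3 genes was not tested. The others furthest below were Tbc1d9b, with 88.1% of 101 vehicle UMIs in 1 cell, and Spp1, with 79.8% of 198 in 1 cell.

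Naive genes had 0 of 14 higher and 4 lower, with a median of -0.24, where 16.3% of all measured genes were higher and 18.6% lower. Lef1 had 114 CPM in RP-6306 cells, with UMIs in 7 of 17, and 329 CPM in vehicle cells, with UMIs in 30 of 45, a ratio of -1.53 (-2.42 to -0.74), which was -0.03 after each cell was thinned to 2000 UMIs. Il7r, at -0.08 (-0.69 to 0.50), and Tcf7, at 0.35 (-0.40 to 1.08), did not pass 1.5-fold. Inhibitory receptor genes had 4 of 11 higher and 2 lower, with a median of 0.40, and Ctla4 a ratio of -0.48 (-1.05 to 0.05). The state genes thus gave no common direction between the libraries.

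**Figure D5:**
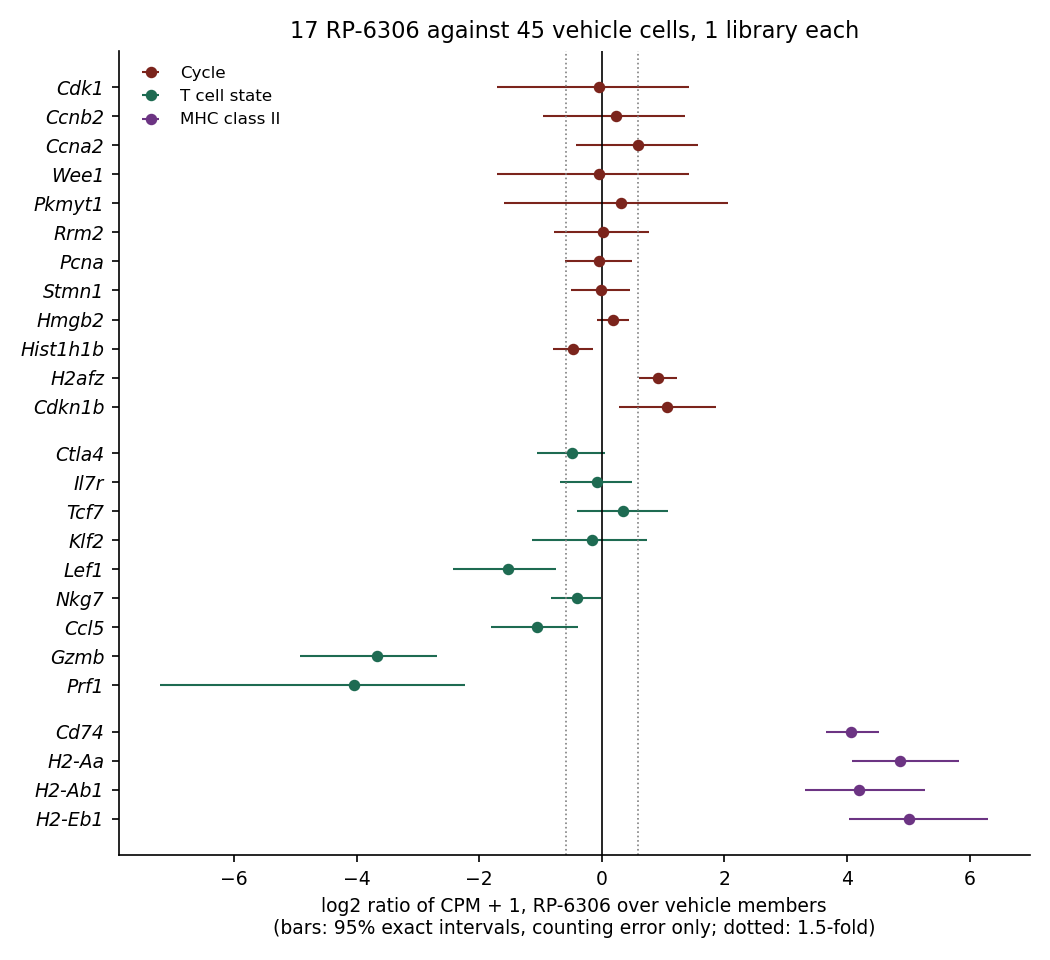
Log2 ratio of RP-6306 over vehicle for 25 genes in the Mki67- and Top2a-positive T cells, with exact 95% intervals that cover counting error only and dotted lines at 1.5-fold. Most cycle genes (red) have intervals that hold 0, while the MHC class II genes (purple, Cd74 at 4.07), which rest on few cells, and Gzmb (green, -3.67), found in 2 RP-6306 cells and 18 vehicle cells, lie far out.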

How the data were processed

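The submitters' processing notes list Cell Ranger 2.1.1 and mm10, with no role given for either. The matrices the authors deposited hold raw UMI counts, not normalized, for 32285 features per library, with 158073632 UMIs in the RP-6306 library and 135415063 in the vehicle library. PCR copies are collapsed in UMIs, but cells share libraries, so cells were not treated as replicates. Everything else was computed here with scipy 1.17.1, numpy 2.4.6, pandas 2.3.3 and scanpy 1.11.5 under Python 3.11.15, and drawn with matplotlib 3.10.9.

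UMIs were summed over the cells of a group and written as CPM. Ratios are log2 of CPM + 1, with exact conditional binomial 95% intervals of the raw ratio, CPM has exact Poisson intervals and shares have Clopper-Pearson intervals. B cells had at least 1 UMI of the 3 B cell genes, none of Cd3 or keratins and at most 1 of Lyz2, and tumour cells at least 3 of Krt8 and Krt18 and none of Cd3. Named genes were the 12 highest and 12 lowest ratios that reached 50 CPM and 50 UMIs in the higher group, plus 60 genes and the gene lists, apart from genes not reported here. The cells, genes and lists were chosen with earlier results of these data known. Scrublet called 0 RP-6306 and 1 vehicle barcode, too few to be of use, so no doublets were removed. The top 6% of its scores held 0 and 2 of the 62 cells. The calculations were tested on simulated data.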

Additional observations from a re-analysis of the deposited data

How the results depend on the processing

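No paired analysis was possible because each group is 1 library. The log2 ratio of the T cell share was -1.83 and lay between -2.09 and -1.59 under the other settings, except at 1 or more UMIs of Mki67 and Top2a (-0.73), at 1 or more after thinning to 1000 UMIs (-0.82), and for 10 or more UMIs of the S phase and G2/M lists (-0.25). Genes past 2-fold against the other T cells numbered 1521, and 640 with a pseudocount of 10 CPM, 2306 with no gene filter beyond 1 UMI, 672 at 100 UMIs per gene, 2345 for cells with 6 or more UMIs, and 717 where 5 member UMIs were expected or seen. Genes past 1.5-fold between RP-6306 and vehicle cells numbered 1447, and 8036 with no filter, 123 at 100 UMIs, 405 thinned to 2000 UMIs, 907 without cells holding tumour list UMIs, 752 in CD8 cells and 348 in CD4 cells. The cause of these moves was not tested beyond the fewer genes or cells some settings keep.

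Signs turned as follows. Against the other T cells, in cells with 6 or more UMIs, the cytotoxic median was -0.25, the NK cell median -1.10 and Cxcr3 -0.25. In CD4 cells, Ccr2 was -0.35, Gzmb -1.36 and Havcr2 -0.25. Il2ra was -0.78 after thinning, MHC class II -0.30 in CD8 cells, and macrophages -0.45 without the 3 cells rich in 1 list. For RP-6306 over vehicle, in CD8 cells, the cytotoxic median was 0.27, regulatory T genes 0.73, Cd74 -0.95, H2-Aa -6.42, H2-Ab1 -5.84, H2-Eb1 -5.65, Ifitm1 -6.01 and Plxdc2 -3.91. In CD4 cells, Cd74 was -7.46, Cst3 -0.50, Gpx1 -0.41, H2afz -0.44, Ifitm1 -4.70, Plxdc2 -5.67, Psap -0.25 and S100a11 -0.39. Without the 3 cells, Cd74 was -1.46, H2-Aa -1.18, H2-Ab1 -5.07, H2-Eb1 -0.50, Ifitm1 -1.88 and Plxdc2 -3.95, and Plxdc2 was -3.19 without its top cell. Counted once per gene and setting, 355 of the other gene ratios between RP-6306 and vehicle cells moved by less than 0.25. In the same count 296 moved by more, with no change of sign in a ratio past 1.5-fold. The settings at 6 or more UMIs, at 5 expected UMIs, with a receptor constant UMI and without the 3 cells were chosen after seeing the data.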

Other observations

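T cell receptor variable segments were read as 3' UMIs and are sparse. A Trbv UMI was present in 13 of 17 RP-6306 cells and 35 of 45 vehicle cells, and 14 different Trbv segments were seen in each library. The most frequent was Trbv13-2, in 4 RP-6306 cells, and Trbv12-2, in 8 vehicle cells, and both segments were also the most frequent pair in the other T cells of each library. No segment was carried by most of the cells.

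Foxp3-positive T cells, which the gate left out, were few. Of 32 in the RP-6306 library 0 had at least 3 Mki67 and Top2a UMIs, which allows a share of up to 9.38% by a limit of 3 counts, and of 47 in the vehicle library 4 did (8.51%). A difference was not detectable at this depth.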
